A study of Neurospora crassa with 12 samples.

Results

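Of the 12 RNA-seq samples of the series, 4 form the contrast described here, 2 cultures of the Neurospora crassa wild type (WT) with histidine and 2 with leucine as the only nitrogen source, and all 9730 genes of the count table entered it. N. crassa is a filamentous ascomycete that secretes cellulases and hemicellulases when it grows on plant cell wall material. WT mycelia precultured in 2% glucose were washed and moved to nitrogen-free Vogel's salts with 2% Avicel, a microcrystalline cellulose, plus 50 mM histidine or 50 mM leucine. RNA was taken 4 h or 8 h after that shift, since the methods and the sample labels give different times. The other groups are WT on Avicel with the ammonium nitrate of the usual medium, and a deletion strain of the transcription factor gene clr-5 (Δclr-5) on the same 3 media. The duplicates are described as independent cultures, and Δclr-5 is a single deletion strain. RNA-seq of bulk mycelium gives shares of the RNA pool, so that fewer cells of a type and less RNA per cell cannot be told apart.

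Both amino acids can serve the fungus as a source of ammonium, but their carbon skeletons differ. Leucine is broken down in mitochondria through isovaleryl-CoA and methylcrotonoyl-CoA to acetyl-CoA and acetoacetate, and growth on acetyl units calls on the glyoxylate cycle and gluconeogenesis. Histidine carries nitrogen in its imidazole ring as well as in its amino group. In N. crassa, starvation for a single amino acid is known to raise the genes of many biosynthetic pathways together, a response named cross-pathway control that runs through the bZIP factor CPC1.

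Total counts were 18465321 and 17222242 in the histidine cultures and 18336633 and 16797962 in the leucine cultures, and all 12 samples ranged from 16797962 to 20381308. Transcript levels are given as CPM, counts scaled to a common library total, after TMM scaling, for each of the 2 cultures of a medium. Folds, standard errors and p-values come from edgeR's quasi-likelihood F test fitted to all 12 samples, with Benjamini-Hochberg adjustment over the 8805 genes that passed the filter on low counts, and a positive log2 fold change means a higher level on histidine. Calls needed an adjusted p below 0.05 together with a change of 0.5 log2 units or more in either direction. The histidine cultures differed from each other more than the leucine cultures did. Among 7023 genes with a mean log2 CPM of at least 3, 111 differed over 2-fold between the histidine cultures and 17 between the leucine cultures.

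In WT, 2086 genes were higher and 2293 were lower on histidine than on leucine, which is 23.7% and 26.0% of the 8805 genes tested. The remaining 4426 genes were not called. In each of the 4379 called genes both histidine cultures lay on one side of both leucine cultures. The calls came from these same cultures, so this is a description and not separate evidence. The share of such genes among all genes tested is not given here. The changes beyond 4-fold were more often decreases, with 677 genes lower and 387 higher by at least 2 log2 units, and 184 genes lower and 64 higher by at least 4. The split depended on the scaling. With library size alone in place of TMM, the median over all genes was 0.42, against 0.027 with TMM on the log2 scale, and 3505 genes were called higher and 1541 lower. The directions given for gene groups below are relative to the TMM median. Counts of called members in a group are to be read beside the 23.7% higher and 26.0% lower among all genes tested.

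**Figure D1:**
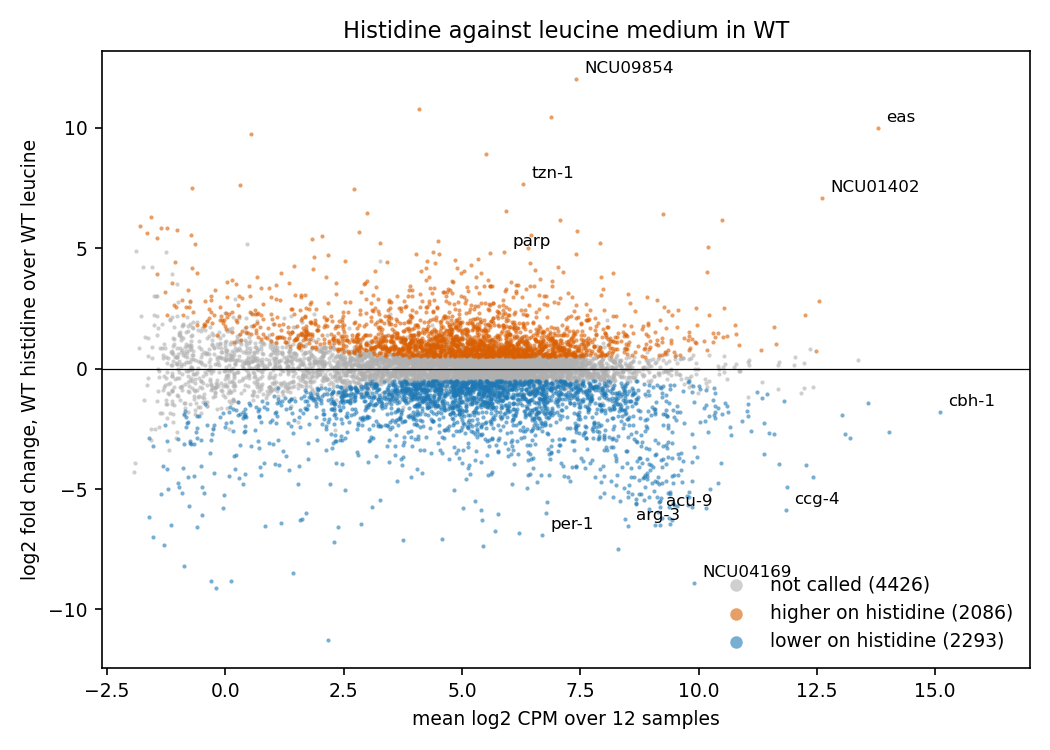
Mean log2 CPM over the 12 samples (x axis) against the log2 fold change of WT histidine over WT leucine (y axis) for the 8805 genes tested. Orange points are the 2086 genes called higher on histidine, blue points the 2293 called lower and grey points the 4426 not called, and 11 genes described in the text are labelled, from NCU09854 at 12.03 to NCU04169 at -8.92. Genes beyond -9 at the left had low counts and lie below the level required for the genes named as largest.

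Among called genes with a mean log2 CPM of at least 3 over the 12 samples, the largest increases on histidine were of genes that were nearly silent on leucine. NCU09854 had 619 and 499 CPM in the histidine cultures, against 0.18 and 0.0672 CPM in the leucine cultures, where 4 reads were counted in both cultures together. The ratio of the summed counts, scaled for depth, was 4431 with an exact 95% counting interval of 1730.2 to 16262. Its neighbour in the OR74A reference, NCU09855, had 218 and 183 CPM in the histidine cultures, against 0.48 and 0.336 CPM in the leucine cultures (log2 fold change 8.90, standard error 0.40, adjusted p = 7.63e-08). These genes lie on chromosome V from 5964225 to 5966551 and from 5968748 to 5969817. Another pair of neighbours, NCU02879 and NCU02880, lies on chromosome I from 8826363 to 8828154 and from 8823648 to 8824866. NCU02879 had 65.5 and 69.1 CPM in the histidine cultures, against 0.0599 and 0 CPM in the leucine cultures. Its level on leucine rests on 1 read, and the ratio had a 95% counting interval of 381 to 83856. NCU02880 had 497 and 684 CPM in the histidine cultures, against 0.3 and 0.538 CPM in the leucine cultures (log2 fold change 10.46, standard error 0.39, adjusted p = 3.09e-08). All 4 genes stood at 1.57 CPM or less in both WT cultures on Avicel with ammonium nitrate. None of the 4 has a product name in the sources used here.

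Of the genes with a known product, eas, for the hydrophobin of the rodlet layer on conidia, changed most. It had 539 and 816 CPM in the histidine cultures, against 0.539 and 0.806 CPM in the leucine cultures (log2 fold change 9.97, standard error 1.24, adjusted p = 0.000108), while WT on Avicel with ammonium nitrate had 106 and 158 CPM. The zinc transporter gene tzn-1 had 369 and 365 CPM on histidine, against 2.16 and 1.41 CPM on leucine (log2 fold change 7.67, standard error 0.30, adjusted p = 3.54e-08). NCU01402, annotated as an indoleamine 2,3-dioxygenase, the enzyme type that opens the indole ring of tryptophan, had 17190.1 and 19954 CPM on histidine, against 157 and 118 CPM on leucine (log2 fold change 7.08, standard error 0.84, adjusted p = 6.33e-05). It held the largest mean share of counts on histidine, 2.03% and 2.35%, against 0.0143% and 0.0105% on leucine. On Avicel with ammonium nitrate it was at 0.987 and 0.525 CPM, below both amino acid media. NCU00848, annotated as the integral membrane protein TmpA, had 166 and 231 CPM on histidine, against 2.1 and 2.55 CPM on leucine (log2 fold change 6.41, adjusted p = 4.82e-06). The genes NCU08413, NCU05477, NCU09115 and NCU05105, which have no product name here, rose by log2 fold changes of 6.56, 6.16, 6.16 and 5.70. Further named increases were those of ncw-5, a non-anchored cell wall protein gene (log2 fold change 5.23), ccg-13, a clock-controlled gene (4.79), ada-6, a transcription factor gene (4.74), rsk (4.48) and NCU01598, annotated as a methyltransferase (4.32).

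By the same criterion of level, the gene with the largest decrease on histidine was NCU04169, with 5.41 and 5.14 CPM in the histidine cultures, against 2619.6 and 2499 CPM in the leucine cultures (log2 fold change -8.92, standard error 0.72, adjusted p = 5.86e-06). It was at 472 and 453 CPM on Avicel with ammonium nitrate, between the 2 amino acid media. The polyketide synthase gene per-1, which is known for the pigment of the fruiting body wall, had 2.8 and 2.81 CPM on histidine, against 363 and 317 CPM on leucine (log2 fold change -6.92, standard error 0.22, adjusted p = 2.15e-08). NCU00963, a methylenetetrahydrofolate dehydrogenase of one-carbon metabolism, had 3.07 and 1.38 CPM on histidine, against 273 and 242 CPM on leucine (log2 fold change -6.84, standard error 0.35, adjusted p = 1.48e-07). NCU02077, NCU03481, NCU06905 and NCU08425, without product names, had log2 fold changes of -7.35, -7.11, -7.08 and -6.75, and NCU16673, NCU04779 and NCU03988, also without one, had -7.49, -6.50 and -6.50. Among genes with a product, adh-1, for alcohol dehydrogenase I, had 23.9 and 38.8 CPM on histidine, against 1424 and 2084 CPM on leucine (log2 fold change -5.81, adjusted p = 9.02e-06). NCU01057, annotated as a TauD-type dioxygenase, NCU01061, annotated as a dienelactone hydrolase, and rap-1 had log2 fold changes of -6.22, -6.05 and -6.21.

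**Figure D2:**
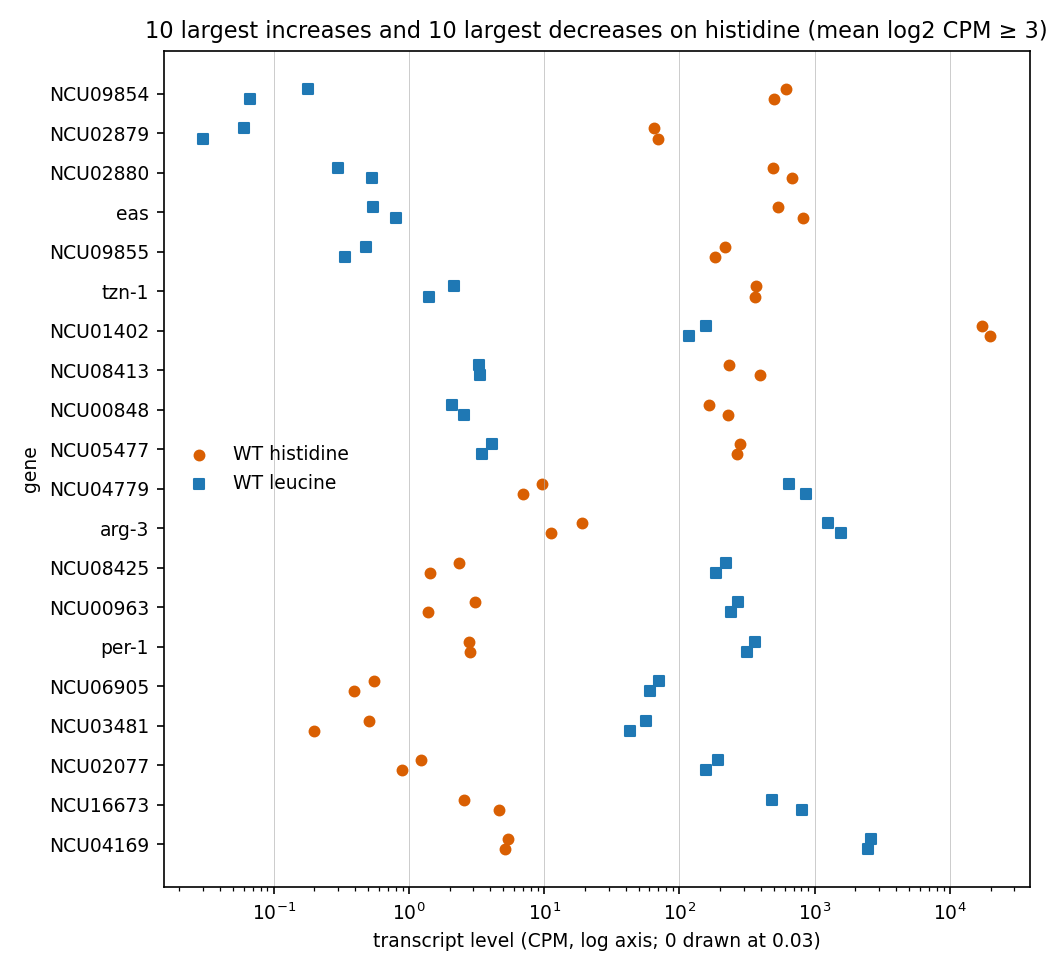
Transcript levels (CPM, log axis) of the 10 genes with the largest increases and the 10 with the largest decreases among called genes with a mean log2 CPM of at least 3, in each culture of WT on histidine (orange circles) and on leucine (blue squares). The genes were also selected for having both cultures of one medium to one side of both cultures of the other. They run from NCU09854 at the top, highest on histidine, to NCU04169 at the bottom, highest on leucine.

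The 3 genes listed for leucine breakdown were lower on histidine, and most matched genes of histidine synthesis were lower there too. In the separate list of acetoacetate and acyl-CoA enzymes, 4 of 10 genes were lower and 0 were higher, with a median log2 fold change of -0.17. NCU02127 and NCU00591 encode the beta and alpha subunits of methylcrotonoyl-CoA carboxylase, and NCU02126 encodes isovaleryl-CoA dehydrogenase. NCU02127 had 72.1 and 123 CPM in the histidine cultures, against 922 and 700.4 CPM in the leucine cultures (log2 fold change -3.05, standard error 0.67, adjusted p = 0.00357). NCU02126 had 65.5 and 95.1 CPM on histidine, against 502 and 364 CPM on leucine (log2 fold change -2.43, standard error 0.42, adjusted p = 0.000927). NCU00591 had 386 and 585 CPM on histidine, against 1577 and 1257 CPM on leucine (log2 fold change -1.55, standard error 0.45, adjusted p = 0.0141), and this call was lost without histidine culture 1 (adjusted p = 0.103) or leucine culture 1 (adjusted p = 0.0706) and with library size scaling (adjusted p = 0.0643). The histidine cultures were nevertheless above WT on Avicel with ammonium nitrate, where the 3 genes were at 1.62 and 2.17 CPM, 1.62 and 2.17 CPM and 25.4 and 18.7 CPM. NCU02126 and NCU02127 carry consecutive locus numbers.

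Of 5 matched genes of histidine biosynthesis, 4 were lower on histidine and 1 did not pass the test (median log2 fold change -1.83, against 0.027 over all genes). his-2, for ATP phosphoribosyltransferase, the first enzyme of the pathway, had 37.1 and 37.9 CPM in the histidine cultures, against 286 and 307 CPM in the leucine cultures (log2 fold change -2.98, standard error 0.23, adjusted p = 1.62e-06). his-3, whose product carries out several steps of the pathway, had 290.2 and 231 CPM on histidine, against 971 and 886 CPM on leucine (log2 fold change -1.83, adjusted p = 8.2e-06), and his-6 and his-7 had log2 fold changes of -3.71 and -1.67. NCU11365, an aminotransferase gene, had 681 and 737 CPM on histidine, against 902 and 863 CPM on leucine (log2 fold change -0.32, adjusted p = 0.0902). It did not pass the test between the amino acids, and was at 1.69 and 1.95 CPM on Avicel with ammonium nitrate.

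The branched-chain pathway, which makes leucine itself, was also lower on histidine than on leucine. Of 9 matched genes 7 were lower, 0 higher and 2 not called, with a median of -2.59. ilv-2 had 26 and 19.7 CPM in the histidine cultures, against 676 and 1009 CPM in the leucine cultures (log2 fold change -5.20, standard error 0.50, adjusted p = 1.88e-05), and ilv-6 had 14.7 and 16.4 CPM on histidine, against 229 and 249 CPM on leucine (log2 fold change -3.94, adjusted p = 4.28e-05). Of the leucine-specific steps, leu-4, for 2-isopropylmalate synthase, had 293 and 263 CPM on histidine, against 834 and 969 CPM on leucine (log2 fold change -1.70, adjusted p = 3.59e-05), and leu-1, for 3-isopropylmalate dehydrogenase, had 19.3 and 22 CPM on histidine, against 132 and 230.2 CPM on leucine (log2 fold change -3.13, adjusted p = 2.03e-05). leu-2, for the isomerase between them, had a log2 fold change of -2.86, NCU00792, a branched-chain aminotransferase gene, -2.59 and ilv-4, for the small subunit of acetolactate synthase, -2.57. The members that did not pass were ilv-5, at 140.0 and 155 CPM on histidine, against 141 and 140.2 CPM on leucine, and NCU03607, at 137 and 141 CPM on histidine, against 135 and 103 CPM on leucine.

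Lower transcript levels on histidine ran through the other amino acid pathways as well. All 11 matched genes of aromatic amino acid synthesis were lower (median -3.32). So were all 4 matched genes of lysine synthesis (-4.11), of 7 names listed. The same held for all 4 matched genes of serine and threonine synthesis (-2.95), of 10 names listed. Names without a match were not examined. In the arginine pathway 8 of 10 matched genes were lower and 1 was higher (median -3.83). Its largest decrease was of arg-3, which encodes a carbamoyl phosphate synthetase subunit, at 18.9 and 11.2 CPM in the histidine cultures, against 1251 and 1565 CPM in the leucine cultures (log2 fold change -6.55, standard error 0.76, adjusted p = 6.75e-05). arg-1, for argininosuccinate synthetase, had 72.1 and 62 CPM on histidine, against 1758 and 1674 CPM on leucine (log2 fold change -4.68, adjusted p = 5.86e-08), and arg-10, for argininosuccinate lyase, had a log2 fold change of -5.35. The exception was arg-13, the mitochondrial ornithine carrier gene, with 25.3 and 20.2 CPM on histidine, against 17 and 13.4 CPM on leucine (log2 fold change 0.58, adjusted p = 0.0487), and leaving out any 1 of the 4 cultures ended this call. In the aromatic pathway aro-8, for a DAHP synthase that opens the shikimate route, had 42.4 and 26 CPM on histidine, against 907 and 860.3 CPM on leucine (log2 fold change -4.69, adjusted p = 3.25e-06), and trp-4, of the tryptophan branch, had a log2 fold change of -4.12. lys-5, for homocitrate synthase, had 132 and 102 CPM on histidine, against 2584 and 3293 CPM on leucine (log2 fold change -4.65, adjusted p = 4.87e-06), and NCU01439, annotated as a phosphoglycerate dehydrogenase of serine synthesis, 132 and 107 CPM on histidine, against 1525 and 1603 CPM on leucine (log2 fold change -3.71, adjusted p = 2.68e-06). On Avicel with ammonium nitrate arg-1 was at 326 and 362 CPM and aro-8 at 101 and 135 CPM, between the amino acid media in both genes.

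Of 20 matched genes of sulfur assimilation and methionine and cysteine synthesis, 16 were lower on histidine and 1 was higher (median -1.42). cys-14, a sulfate permease gene, had 4.03 and 4.89 CPM in the histidine cultures, against 207 and 214 CPM in the leucine cultures (log2 fold change -5.56, standard error 0.51, adjusted p = 1.37e-05). cys-11, for sulfate adenylyltransferase, had 37.3 and 27 CPM on histidine, against 449.7 and 459 CPM on leucine (log2 fold change -3.82, adjusted p = 2.68e-06), and eth-1, for S-adenosylmethionine synthetase, and met-8, for methionine synthase, had log2 fold changes of -4.07 and -3.87. The member that rose was scon-3, of a ubiquitin ligase that controls the sulfur genes, by 0.92. All 6 matched ad genes of purine synthesis were lower as well (median -3.43), among them ad-4, for adenylosuccinate lyase, at 38.7 and 33.4 CPM on histidine, against 521 and 513 CPM on leucine (log2 fold change -3.84, adjusted p = 2.24e-07), and ad-8, for adenylosuccinate synthetase, at -3.27. Of 12 aminoacyl-tRNA synthetase genes 9 were lower and 1 was higher (median -1.72). The glycyl-tRNA synthetase gene NCU00405 had 116 and 74.9 CPM on histidine, against 1059 and 967 CPM on leucine (log2 fold change -3.41, adjusted p = 2.1e-06), while NCU00535, annotated as an alanyl-tRNA synthetase, had 133 and 134 CPM on histidine, against 46.1 and 43.5 CPM on leucine (log2 fold change 1.58, adjusted p = 6.58e-06).

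The transcript of cpc-1, the regulator of cross-pathway control, did not differ beyond the test, with 5401 and 5302 CPM in the histidine cultures, against 4838 and 4866 CPM in the leucine cultures (log2 fold change 0.14, adjusted p = 0.576), and with library size scaling it was called higher on histidine (log2 fold change 0.53, adjusted p = 0.0304). cpc-3, a kinase gene of the same response, had 123 and 103 CPM on histidine, against 227 and 185 CPM on leucine (log2 fold change -0.87, adjusted p = 0.000865). cpc-2 encodes a ribosome-bound protein of the RACK1 type, and its 21.9 and 10 CPM on histidine, against 719 and 978 CPM on leucine (log2 fold change -5.73, standard error 0.40, adjusted p = 8.81e-07) lay within the range of the ribosomal protein genes.

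Those ribosomal protein genes formed the group with the lowest median. Of 29 cytosolic ribosomal protein genes with an annotation here, 28 were lower on histidine and 0 were higher, with a median log2 fold change of -4.45. Their summed level was 1548 and 1332 CPM in the histidine cultures, against 18406 and 24832 CPM in the leucine cultures, and 31890.0 and 38368 CPM in WT on Avicel with ammonium nitrate. NCU01776, for protein L15 of the large subunit, had 13.1 and 6.27 CPM in the histidine cultures, against 731 and 976 CPM in the leucine cultures (log2 fold change -6.46, standard error 0.38, adjusted p = 2.31e-07). un-16, for protein S9 of the small subunit, had 20 and 11.1 CPM on histidine, against 708 and 953 CPM on leucine (log2 fold change -5.74, standard error 0.33, adjusted p = 1.97e-07), and NCU02181, for S4, had 25.6 and 17.8 CPM on histidine, against 959 and 1339 CPM on leucine (log2 fold change -5.73, standard error 0.27, adjusted p = 8.37e-08). Culture 2 was the lower of the histidine cultures and the higher of the leucine cultures in each of these. crp-15, for protein S7, had a log2 fold change of -5.60. The exception was NCU01474, annotated as L4, with 58 and 53.1 CPM on histidine, against 52.6 and 69.5 CPM on leucine (log2 fold change -0.14, adjusted p = 0.542). tef-1, for elongation factor 1 alpha, held one of the 5 largest mean shares of counts on leucine. It fell to 7584 and 7470.0 CPM on histidine, against 20211 and 19741 CPM on leucine (log2 fold change -1.41, adjusted p = 0.000571).

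**Figure D3:**
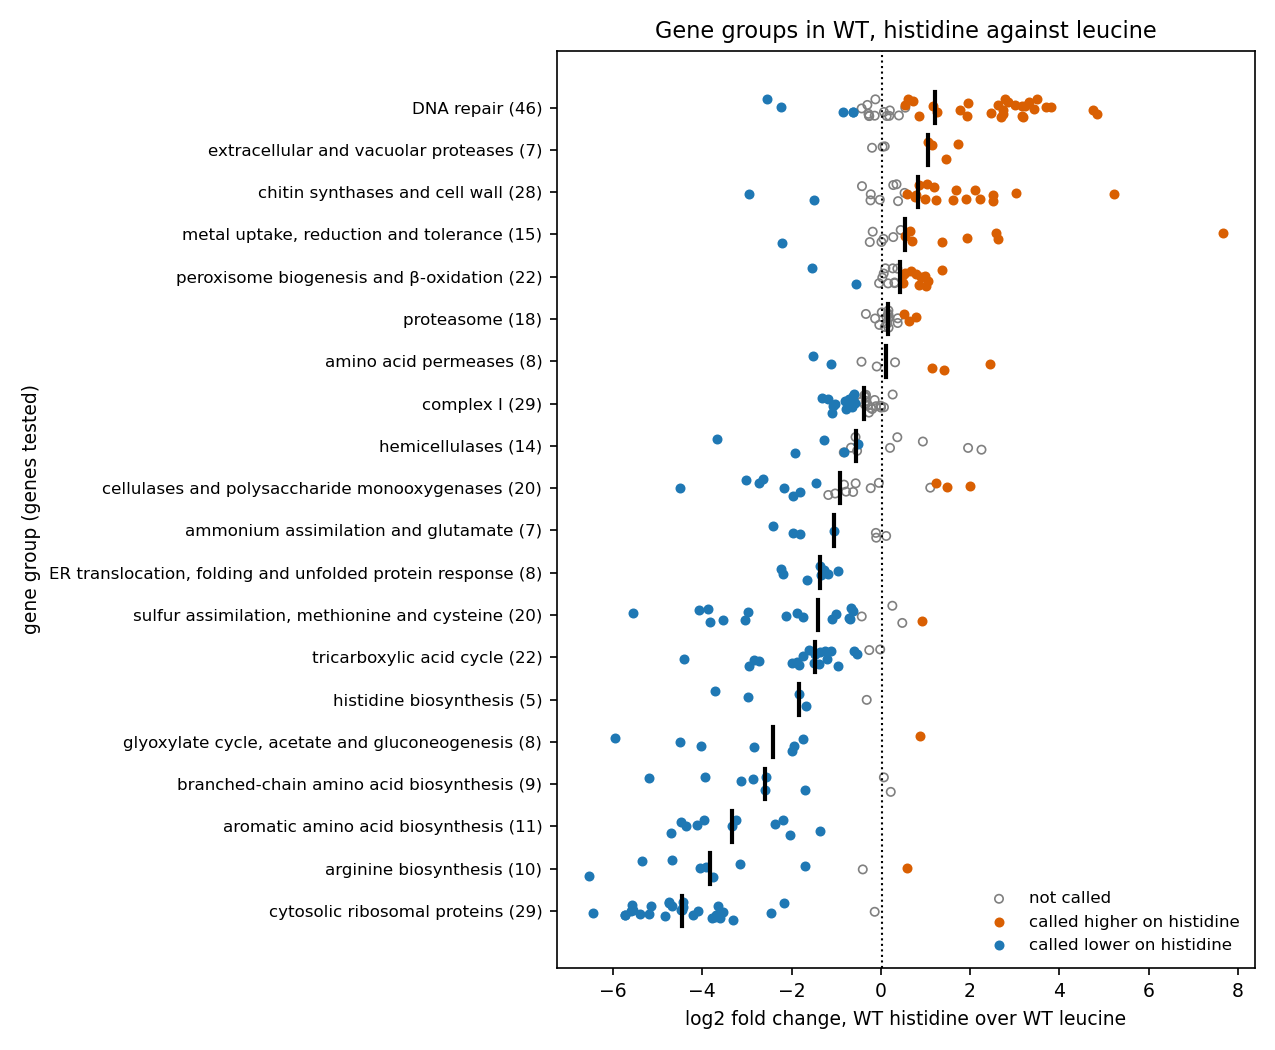
Log2 fold changes of WT histidine over WT leucine (x axis) for the tested members of 20 gene groups, ordered by their median (black bar). Filled orange and blue points are members called higher and lower on histidine, open grey points are members not called, and the dotted line is the median of all 8805 genes at 0.027. Cytosolic ribosomal proteins have the lowest median, -4.45, and DNA repair genes the highest, 1.21.

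Genes that carry acetyl units into sugar were lower on histidine and high on leucine. Of 8 genes of the glyoxylate cycle, acetate use and gluconeogenesis 7 were lower and 1 was higher (median -2.42). The malate synthase gene acu-9 had 12.5 and 29.9 CPM in the histidine cultures, against 1473 and 1161 CPM in the leucine cultures (log2 fold change -5.96, standard error 0.49, adjusted p = 4.67e-06), and acu-3, for isocitrate lyase, had 63.6 and 96 CPM on histidine, against 1869.8 and 1719 CPM on leucine (log2 fold change -4.49, standard error 0.51, adjusted p = 5.67e-05). Both were low on Avicel with ammonium nitrate, at 5.57 and 4.57 CPM and 11.3 and 14.6 CPM. acu-5, for acetyl-CoA synthetase, had 27.4 and 28.2 CPM on histidine, against 456 and 458 CPM on leucine (log2 fold change -4.04, adjusted p = 1.45e-05), and fbp-1, for fructose-1,6-bisphosphatase, had a log2 fold change of -1.95. acu-6, for phosphoenolpyruvate carboxykinase, had 45.9 and 112 CPM on histidine, against 417 and 211 CPM on leucine (log2 fold change -1.99, adjusted p = 0.0198), and its call was lost without histidine culture 1 (adjusted p = 0.14) or leucine culture 1 (adjusted p = 0.128). The gene that rose was acu-15, the activator of acetate use, with 1247 and 1276 CPM on histidine, against 704 and 671 CPM on leucine (log2 fold change 0.88, adjusted p = 0.00343), in the other direction from its pathway.

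Genes of respiratory metabolism were lower on histidine as well, with smaller medians. Of 22 genes of the tricarboxylic acid cycle and pyruvate steps 20 were lower and 0 were higher (median -1.47). The citrate synthase gene cit-1 had 63.6 and 55.5 CPM on histidine, against 403 and 457 CPM on leucine (log2 fold change -2.85, standard error 0.25, adjusted p = 4.9e-06), and tca-8, for the alpha chain of succinyl-CoA ligase, had 115 and 115 CPM on histidine, against 409 and 417 CPM on leucine (log2 fold change -1.84, adjusted p = 6.5e-06). In the list of 21 other respiratory chain genes, which also holds tca-10 of the tricarboxylic acid cycle list, 14 were lower and 0 were higher (median -0.96), among them cyc-1, for cytochrome c (-1.78), and atp-1, for a subunit of ATP synthase (-1.65). In complex I 13 of 29 genes were lower and 16 were not called (median -0.37). Library size scaling moved that median to 0.025 and left 5 lower and 1 higher. Of 21 mitochondrial import genes 10 were lower and 2 were higher (median -0.55), with tob55, of the outer membrane, at -2.88. In the glycogen, trehalose and glucose-repressible group 6 of 12 were lower and 3 were higher. gpd-1, for glyceraldehyde 3-phosphate dehydrogenase, had 823 and 752 CPM on histidine, against 4515 and 5509.6 CPM on leucine (log2 fold change -2.67, adjusted p = 1.61e-05), gsy-1, for glycogen synthase, -2.58 and tre-1, for trehalase, -2.59, while ccg-14 rose by 3.28.

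Nitrogen genes moved in both directions, as did genes over the whole set. Of 7 genes of ammonium assimilation and glutamate 4 were lower on histidine and 0 were higher. am, for the NADP-dependent glutamate dehydrogenase that fixes ammonium, had 543 and 226 CPM in the histidine cultures, against 2098 and 1975 CPM in the leucine cultures (log2 fold change -2.41, standard error 0.53, adjusted p = 0.00347), with the histidine cultures over 2-fold apart. The glutamine synthetase genes gln-1 and gln-2 had 377 and 349 CPM on histidine, against 1423 and 1417 CPM on leucine (log2 fold change -1.97, adjusted p = 5.83e-06), and 2331 and 2531 CPM on histidine, against 5548 and 4542 CPM on leucine (log2 fold change -1.05, adjusted p = 0.00265). NCU00936, for succinate semialdehyde dehydrogenase, had a log2 fold change of -1.81. gdh-1, for the NAD-dependent glutamate dehydrogenase that releases ammonium from glutamate, was not called, at 1967 and 2502 CPM on histidine, against 2449 and 2347 CPM on leucine, and both media lay above the 191 and 171 CPM of Avicel with ammonium nitrate. The glutamate synthase gene en(am)-2 and the glutamate decarboxylase gene NCU00678 were not called, with log2 fold changes of -0.11 and 0.12.

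Of 8 amino acid permease genes 3 were higher, 2 were lower and 3 were not called. Among all genes tested 23.7% were higher and 26.0% were lower. mtr, the neutral amino acid permease, had 1812 and 2469 CPM in the histidine cultures, against 439 and 343 CPM in the leucine cultures (log2 fold change 2.45, standard error 0.56, adjusted p = 0.00433). The general permease gene pmg had 697 and 1093 CPM on histidine, against 363 and 305 CPM on leucine (log2 fold change 1.42, adjusted p = 0.000162), and NCU00721, annotated as a proline-specific permease, had 867 and 1321 CPM on histidine, against 547 and 442 CPM on leucine (log2 fold change 1.15, adjusted p = 0.00328). Histidine culture 2 had the highest level in all 3 genes. pmb, for the basic amino acid permease, and NCU09458 were lower, at 47.9 and 47.5 CPM on histidine, against 156 and 118 CPM on leucine (log2 fold change -1.52, adjusted p = 7.51e-05), and 60 and 55.3 CPM on histidine, against 124 and 124 CPM on leucine (log2 fold change -1.10, adjusted p = 3.41e-05). aap-2, NCU01481 and NCU00711 had log2 fold changes of -0.43, -0.091 and 0.32 and were not called. Summed over the list, permease transcripts were at 3588 and 5087 CPM in the histidine cultures, against 1728 and 1424 CPM in the leucine cultures.

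In the list of nitrogen regulation and alternative nitrogen sources 4 of 14 genes were higher and 2 were lower. The shares among all genes tested were 23.7% and 26.0%. nmr, for the repressor that binds the activator NIT2, had 82 and 102 CPM on histidine, against 43.8 and 45.2 CPM on leucine (log2 fold change 1.05, adjusted p = 0.000507), and nit-2 itself was not called (log2 fold change 0.30, adjusted p = 0.273). NCU01065, annotated as the ammonium transporter MEP2, rose by 1.12, and NCU00758, annotated as a formate or nitrite transporter, by 1.16. The urea transporter gene NCU01977 had 325 and 321 CPM on histidine, against 619.7 and 579.7 CPM on leucine (log2 fold change -0.89, adjusted p = 0.00173). The other decrease was of tnr-1, with 13.1 and 14.6 CPM on histidine, against 205 and 178 CPM on leucine (log2 fold change -3.79, adjusted p = 0.000285). No product is given for tnr-1 here and its place in nitrogen use was not examined. Its change is therefore not a nitrogen response by itself, and the list counts include a gene not shown to act in nitrogen use.

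In the lists of protein breakdown no gene was called lower on histidine. Of 7 annotated genes for extracellular and vacuolar proteases 4 were higher and 0 were lower (median 1.07). NCU00673, annotated as serine protease p2, had 5184 and 5981 CPM on histidine, against 1662 and 1703 CPM on leucine (log2 fold change 1.73, adjusted p = 0.000318), NCU00477, for carboxypeptidase Y, had 2387 and 2651 CPM on histidine, against 979.8 and 857 CPM on leucine (log2 fold change 1.46, adjusted p = 0.000485), and scp rose by 1.14. Of 18 proteasome genes 3 were higher and 15 were not called (median 0.17), with rpn-12 at 0.79. With library size scaling 12 of the 18 were called higher.

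Genes of DNA repair were higher on histidine, a group put together after the leading increases had been seen, from all reference symbols of the mus and uvs genes (named for mutagen and ultraviolet sensitivity) and of named repair enzymes. Of 46 genes 28 were higher and 5 were lower, with a median log2 fold change of 1.21. parp, for poly(ADP-ribose) polymerase, had 143 and 171 CPM in the histidine cultures, against 5.75 and 5.17 CPM in the leucine cultures (log2 fold change 4.84, standard error 0.22, adjusted p = 7.7e-08). mus-50 had 52.4 and 48.4 CPM on histidine, against 1.26 and 2.49 CPM on leucine (log2 fold change 4.76, standard error 0.28, adjusted p = 2.2e-07). In homologous recombination mus-11, the counterpart of yeast RAD52, had 71.5 and 84.4 CPM on histidine, against 4.68 and 6.45 CPM on leucine (log2 fold change 3.81, adjusted p = 1.55e-07). mus-25, mus-23 and uvs-6, the counterparts of RAD54, MRE11 and RAD50, rose by 3.23, 3.43 and 3.32. The Ku proteins of end joining are encoded by mus-51, which had 149 and 170.0 CPM on histidine, against 13.4 and 15 CPM on leucine (log2 fold change 3.49, adjusted p = 3.93e-08), and mus-52, which rose by 2.63. mus-42 and upr-1, which match REV1 and REV3 of translesion synthesis, had log2 fold changes of 3.69 and 3.16.

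Not all repair genes rose. The photolyase gene phr fell to 6.1 and 3.51 CPM on histidine, against 27.2 and 28.9 CPM on leucine (log2 fold change -2.54, adjusted p = 1.28e-05), and mus-18, for an ultraviolet damage endonuclease, to 10 and 5.33 CPM on histidine, against 39.3 and 33.1 CPM on leucine (log2 fold change -2.24, adjusted p = 7.53e-05). The mismatch repair gene msh6 and rpa-1, for a subunit of the single-strand binding protein, had log2 fold changes of -0.28 and -0.14 and were not called. The summed level of the 46 genes was 3080.3 and 3033 CPM in the histidine cultures, against 1404 and 1412 CPM in the leucine cultures, and these sums did not overlap. These genes were chosen after their values were seen, and the count is a description.

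Metal and cell wall genes were further groups with more increases than decreases on histidine. Of 15 genes of metal uptake, reduction and tolerance 8 were higher and 1 was lower (median 0.54). Beside tzn-1, NCU00029, annotated as a ZIP metal ion transporter, had 128 and 138 CPM on histidine, against 35.5 and 34.5 CPM on leucine (log2 fold change 1.93, adjusted p = 7.21e-06), NCU00876, annotated as a ferric reductase component, 90.5 and 102 CPM on histidine, against 17.2 and 14.9 CPM on leucine (log2 fold change 2.58, adjusted p = 4.03e-07), and NCU02020, a metalloreductase component, a log2 fold change of 2.63. The zinc transporter gene tzn-2 went the other way, with 28.3 and 40.7 CPM on histidine, against 161 and 160.0 CPM on leucine (log2 fold change -2.22, adjusted p = 1.35e-05). Of 28 genes of chitin synthesis and the cell wall 18 were higher and 2 were lower (median 0.83). gel-3 had 2691 and 2843 CPM on histidine, against 496 and 475 CPM on leucine (log2 fold change 2.51, adjusted p = 1.32e-06), ncw-3 had 152 and 306 CPM on histidine, against 24.9 and 31.5 CPM on leucine (log2 fold change 3.02, adjusted p = 0.000145), and acw-3 rose by 2.51. The chitin synthase gene chs-6 had 1.33 and 1.48 CPM on histidine, against 9.23 and 12.8 CPM on leucine (log2 fold change -2.96, adjusted p = 4.72e-06). Of 22 peroxisome and β-oxidation genes, nearly all of them pex genes of peroxisome biogenesis, 11 were higher and 2 were lower (median 0.44). The β-oxidation gene fox-2 was not called (log2 fold change 0.37). hex-1, for the core protein of the Woronin body that plugs septal pores, had 3337 and 3103 CPM on histidine, against 1449 and 1759.6 CPM on leucine (log2 fold change 1.00, adjusted p = 0.00168).

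Among 15 genes for superoxide dismutases, catalases and glutathione transferases 5 were higher and 5 were lower, and with library size scaling 7 were higher and 2 were lower. The glutathione transferase gene gst-3 had 618 and 885 CPM on histidine, against 44.8 and 62.4 CPM on leucine (log2 fold change 3.81, adjusted p = 7.13e-07), and gst-1 and gst-4 rose by 2.85 and 2.13. sod-1, for the copper and zinc superoxide dismutase, had 144 and 185 CPM on histidine, against 465 and 560.3 CPM on leucine (log2 fold change -1.64, adjusted p = 2.13e-05), and cat-3, for a catalase, had 30.1 and 29.1 CPM on histidine, against 11.1 and 8.53 CPM on leucine (log2 fold change 1.59, adjusted p = 0.00244). In the phosphorus list of 7 genes, which library size scaling turned to 4 higher and 2 lower, the phosphate permease gene pho-4 had 1.97 and 1.83 CPM on histidine, against 51.4 and 46.8 CPM on leucine (log2 fold change -4.69, adjusted p = 1.47e-07), 1 other was lower and 1 was higher.

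The cellulase response to Avicel was lower on histidine than on leucine, and this difference depended on the histidine culture. Of 20 tested genes for cellulases and polysaccharide monooxygenases 8 were lower, 3 were higher and 9 were not called (median -0.92). Their summed level was 37190.0 and 10699.7 CPM in the histidine cultures, against 84216 and 92487 CPM in the leucine cultures, and 257739 and 271110.0 CPM in WT on Avicel with ammonium nitrate. cbh-1, for a cellobiohydrolase, had the top share of all counts in both leucine cultures, 3.49% and 3.66%, against 2.09% and 0.585% in the histidine cultures. It had 17654 and 4971 CPM in the histidine cultures, against 38387 and 41320.3 CPM in the leucine cultures (log2 fold change -1.82, standard error 0.61, adjusted p = 0.0267), with the histidine cultures further apart than the leucine cultures. gh61-4 had 500.4 and 134 CPM on histidine, against 6276 and 7998 CPM on leucine (log2 fold change -4.49, standard error 0.67, adjusted p = 0.000275), gh6-2 had 4892 and 826 CPM on histidine, against 16844 and 18737 CPM on leucine (log2 fold change -2.64, standard error 0.73, adjusted p = 0.011), and gh6-3 and gh45-1 had log2 fold changes of -2.73 and -3.01. gh7-1, gh61-3 and gh61-7 completed the decreases, at -1.46, -1.97 and -2.16. The 3 genes that rose, gh7-4, gh6-1 and gh61-10, were at low levels, with gh7-4 at 18.2 and 15.8 CPM on histidine, against 5.75 and 2.62 CPM on leucine (log2 fold change 2.01, adjusted p = 0.000386).

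Of the 20 genes, 17 were higher in histidine culture 1 than in culture 2, 12 of them over 2-fold. Without culture 1 the counts became 13 lower and 2 higher (median -2.02), and without culture 2 they became 6 lower and 1 higher (median -0.46). The call of cbh-1 was lost without histidine culture 2 (log2 fold change -1.17, adjusted p = 0.136) and without either leucine culture (adjusted p = 0.0716 and 0.0875), and with library size scaling (adjusted p = 0.0519). gh61-4, gh6-3, gh45-1 and gh61-3 stayed called in each of these. The call of gh7-1 was lost without histidine culture 2 (adjusted p = 0.0686), and those of gh6-2 and gh61-7 in a fit to the 4 cultures alone (adjusted p = 0.0919 and 0.0985). The increase of gh6-1 was not called without histidine culture 1 (adjusted p = 0.114), nor that of gh61-10 without histidine culture 2 (adjusted p = 0.144). gh5-1, gh61-1 and gh61-5, which were not called, became called decreases without histidine culture 1, at -1.97, -1.63 and -2.08.

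**Figure D4:**
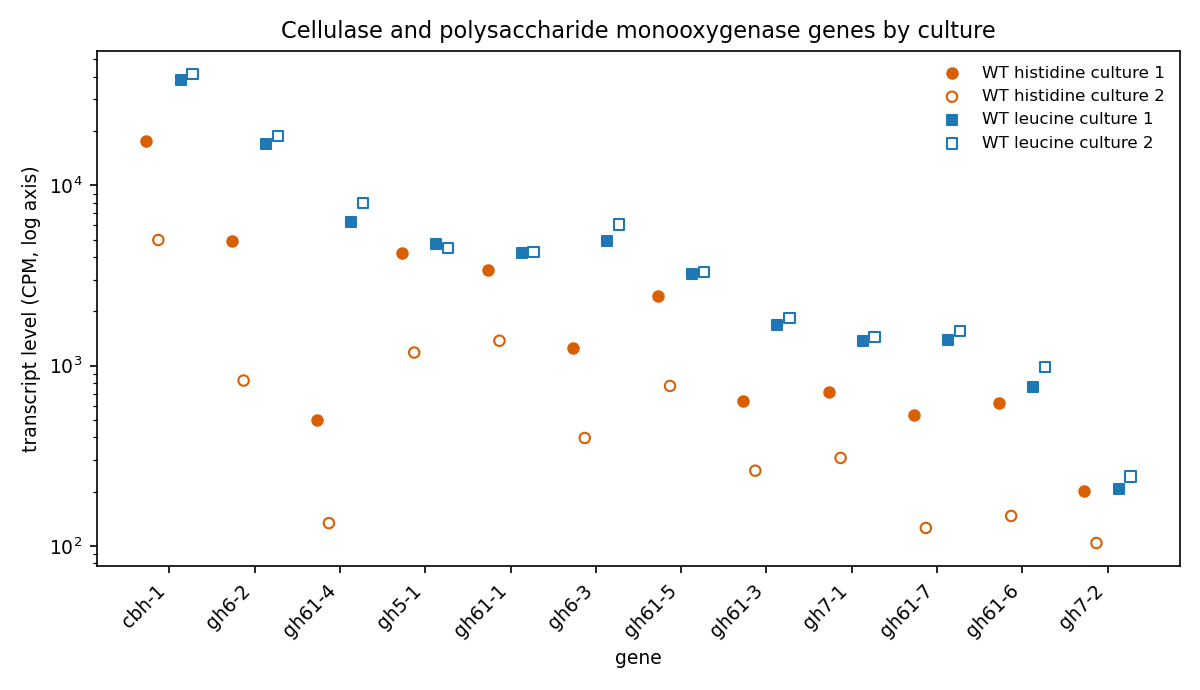
Transcript levels (CPM, log axis) of 12 genes of the cellulose response in each WT culture, with the histidine cultures left of the leucine cultures. They are the 12 members of the list with the highest mean level, and filled and open symbols are cultures 1 and 2. Histidine culture 1 lies above histidine culture 2 in each of them, with 17654 and 4971 CPM for cbh-1, and the leucine cultures lie closer together.

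In the list of cellobiose dehydrogenases and β-glucosidases 4 of 11 were lower and 2 were higher, against 26.0% lower and 23.7% higher among all genes tested. With library size scaling 3 were lower and 5 higher, leaving out histidine culture 2 gave 3 lower and 3 higher, and leaving out histidine culture 1 gave 6 lower and 1 higher. The cellobiose dehydrogenase gene cdh-1 had 422 and 45.8 CPM in the histidine cultures, against 3591 and 3977 CPM in the leucine cultures (log2 fold change -4.02, standard error 0.91, adjusted p = 0.00423). Its histidine cultures lay far apart, and it was not called in a fit to these 4 cultures alone (adjusted p = 0.108, edgeR). The β-glucosidase gene gh3-4 had a log2 fold change of -2.09, and gh3-3 rose by 1.27, to 1534 and 1239.8 CPM on histidine, against 596 and 554 CPM on leucine. Among the hemicellulases 5 of 14 genes fell and 0 rose, but 3 fell and 3 rose with library size scaling. Leaving out histidine culture 1 made 9 of them lower, and leaving out culture 2 made 4. The xylanase genes gh11-1 and gh11-2 had 118 and 36.2 CPM on histidine, against 959.7 and 1001 CPM on leucine (log2 fold change -3.67, adjusted p = 0.000553), and 3055 and 1607 CPM on histidine, against 8397 and 9343 CPM on leucine (log2 fold change -1.93, adjusted p = 0.00142). Of 9 pectin, starch and sucrose enzyme genes 4 were higher and 3 were lower, with gla-1, for glucoamylase, at 313 and 459 CPM on histidine, against 46.5 and 43.5 CPM on leucine (log2 fold change 3.10, adjusted p = 6.94e-05), and inv, for invertase, at 4.49 and 5.97 CPM on histidine, against 36 and 50.8 CPM on leucine (log2 fold change -3.05, adjusted p = 0.00223). Of 12 sugar transporter genes 4 were higher and 2 were lower, beside the same 23.7% and 26.0% among all genes tested. The cellodextrin transporter gene cdt-2 was among the 5 largest mean shares of counts on histidine and was not called, at 12623 and 10447 CPM on histidine, against 8879 and 9305 CPM on leucine (log2 fold change 0.34, adjusted p = 0.26), as was cdt-1 (log2 fold change 0.14, adjusted p = 0.676).

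Of 8 matched regulators of lignocellulose genes 2 were higher, 2 were lower and 4 were not called. The shares over all genes tested were 23.7% higher and 26.0% lower. clr-5, the gene deleted in the mutant strain of the study (NCU05383, col-24 in the reference, chromosome II, 1471066 to 1475393), had 47.5 and 39.9 CPM in the histidine cultures, against 23.5 and 20.2 CPM in the leucine cultures (log2 fold change 1.00, standard error 0.18, adjusted p = 0.000683). Both histidine cultures lay above the 33.8 and 27.6 CPM of WT on Avicel with ammonium nitrate, and both leucine cultures below it. clr-2, the activator of the cellulase genes, had 174 and 68.2 CPM on histidine, against 388 and 399 CPM on leucine (log2 fold change -1.70, adjusted p = 0.0147), and its call was lost without histidine culture 2 (log2 fold change -1.17, adjusted p = 0.0909). cre-1, the carbon catabolite repressor gene, had 79.5 and 66.3 CPM on histidine, against 199.8 and 192 CPM on leucine (log2 fold change -1.43, adjusted p = 0.00292), and rca-1, annotated as a Myb-like DNA-binding protein, had 162 and 175 CPM on histidine, against 16 and 14.9 CPM on leucine (log2 fold change 3.44, adjusted p = 9.1e-06). clr-1, col-26, vib-1 and xlr-1 had log2 fold changes of -0.40, -0.50, -0.36 and 0.43 without passing the test, and xlr-1 was called higher with library size scaling (0.82).

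Secretory pathway genes were lower on histidine. All 8 matched genes of endoplasmic reticulum translocation, folding and the unfolded protein response were called lower (median -1.35), and 6 of them were without histidine culture 2. grp78, for the chaperone BiP, had 558 and 277 CPM in the histidine cultures, against 1827 and 2121 CPM in the leucine cultures (log2 fold change -2.24, standard error 0.40, adjusted p = 0.000742), while Avicel with ammonium nitrate had 9069 and 8078 CPM. NCU09265, for calnexin, had 290.5 and 144 CPM on histidine, against 914 and 1087 CPM on leucine (log2 fold change -2.20, adjusted p = 0.000747), and NCU09223, for a protein disulfide isomerase, 520.1 and 296 CPM on histidine, against 1242 and 1326 CPM on leucine (log2 fold change -1.65, adjusted p = 0.00157). Histidine culture 2 was the lower one in each of these, as it was for cbh-1. Of 12 genes of the heat shock list 3 were lower and 1 was higher (3 and 4 with library size scaling). The list also holds the heat shock factor genes hsf-1 and hsf-2, which were not called. hsp70-2 was at 135 and 83.7 CPM on histidine, against 874 and 1001 CPM on leucine (log2 fold change -3.10, adjusted p = 5.91e-06), and hsp30 had a log2 fold change of 1.33.

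The samples are labelled as mycelium, and markers of conidia and of sexual structures were examined as the other cells that such cultures could hold. Of 12 matched genes of conidiation and the hydrophobin 1 was higher and 5 were lower on histidine. None was at 0 in all 4 cultures, and their summed level was 931 and 1281 CPM in the histidine cultures, against 1311 and 1061 CPM in the leucine cultures. Most of the histidine sums came from eas alone, at 539 and 816 CPM, against 0.539 and 0.806 CPM on leucine. Apart from eas, con-10 had 21.7 and 28.2 CPM on histidine, against 453 and 429 CPM on leucine (log2 fold change -4.14, adjusted p = 0.000472) and con-8 17.9 and 16.7 CPM on histidine, against 52.8 and 62.9 CPM on leucine (log2 fold change -1.74, adjusted p = 0.000972), both in the direction opposite to eas. The con-3 of the list is acu-6 in the reference, so that the acu-6 described above is also counted among these 5 decreases. For fl and acon-3, regulators of conidiation, no call was made, with log2 fold changes of 0.61 and 1.43 (adjusted p = 0.352 and 0.0719), while acon-2 fell by 1.25. Whether the conidial markers had a part in the other differences was not tested. Of 17 light, clock and carotenoid genes 2 were higher and 4 were lower (7 and 3 with library size scaling), among them the carotenoid genes al-1, at -1.96, and al-2, at -1.09.

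In the mating list of 9 genes, 8 of them tested, 3 were lower on histidine and 0 were higher, and with library size scaling 3 were lower and 3 were higher. ccg-4, for the pheromone precursor of mat A strains, had 412 and 313 CPM in the histidine cultures, against 22689 and 20176 CPM in the leucine cultures (log2 fold change -5.89, standard error 0.35, adjusted p = 2.75e-07). On leucine it took 2.06% and 1.79% of all counts, and on Avicel with ammonium nitrate it was at 253 and 248 CPM, near its level on histidine. poi-2, a gene of fruiting body development, had 0.0917 and 0.444 CPM on histidine, against 18.7 and 28.6 CPM on leucine (log2 fold change -6.45, adjusted p = 3.11e-06), and matA-1, the mating-type gene, 59.3 and 47 CPM on histidine, against 123 and 94.3 CPM on leucine (log2 fold change -1.03, adjusted p = 0.00231). The untested matA-2 had 0 and 2 counts on histidine, against 10 and 4 on leucine. The summed level of the list was 765 and 639.6 CPM in the histidine cultures, against 23108 and 20555 CPM in the leucine cultures. On leucine nearly all of it came from ccg-4, and its part in other differences was not tested.

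Of the genes with the largest shares of counts, 3 without a product name differed between the media. NCU03600 had 12723 and 15154 CPM in the histidine cultures, against 1888 and 2139.8 CPM in the leucine cultures (log2 fold change 2.79, adjusted p = 4.25e-06), and NCU10040 had 12246 and 13851 CPM on histidine, against 3259.7 and 2321 CPM on leucine (log2 fold change 2.23, adjusted p = 0.000752). NCU06110 was among the 5 largest on leucine, with 2782 and 3320.2 CPM on histidine, against 23801 and 21509.7 CPM on leucine (log2 fold change -2.89, adjusted p = 3.77e-06), and with 2729.5 and 2987 CPM on Avicel with ammonium nitrate.

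Of the remaining lists, the vacuolar ATPase had 1 of 14 genes higher and 2 lower, the histones 1 of 9 higher and 2 lower, the quinate cluster 3 of 7 and 1, polyketide synthases 2 of 6 and 2, melanin, tyrosinase and laccase genes 2 of 5 and 2, and ergosterol synthesis 1 of 3 and 1. Amino acid oxidases and arginine or proline catabolism had 2 of 6 higher and 2 lower, acetoacetate and acyl-CoA enzymes 0 of 10 and 4, general amino acid control 0 of 4 and 3, and pH signalling 0 of 3 and 1. These counts stand beside 23.7% higher and 26.0% lower among all genes tested. With library size scaling the vacuolar ATPase had 6 higher and 1 lower, the histones 4 higher and 0 lower, ergosterol synthesis 1 higher and 0 lower, polyketide synthases 2 higher and 1 lower, melanin, tyrosinase and laccase genes 3 higher and 2 lower, general amino acid control 1 higher and 1 lower, and pH signalling 2 higher and 1 lower. The same scaling turned the median of acetoacetate and acyl-CoA enzymes to 0.22, against -0.17 with TMM, and that of the lignocellulose regulators to 0.013, against -0.38.

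The same contrast was measured in 4 cultures of Δclr-5, none of which enters the WT difference. There 2078 genes were higher and 2588 were lower on histidine than on leucine, 23.6% and 29.4% of the genes tested. Of the genes higher on histidine in WT, 1397 were also called higher in Δclr-5, 67.0% of the WT list and 67.2% of the mutant list. Of those lower in WT, 1821 were lower in the mutant, 79.4% of the WT list and 70.4% of the mutant list. Opposite calls were made for 33 genes higher in WT and lower in the mutant and for 36 genes the other way. The ribosomal protein genes had a median log2 fold change of -4.40 in Δclr-5, DNA repair genes 0.93, aromatic amino acid synthesis -2.95 and leucine catabolism -2.93.

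A test of the difference itself (WT fold minus Δclr-5 fold) called 1006 genes, 11.4% of those tested, with 576 more positive and 430 more negative in WT. Of the 4379 genes called in WT, 646 were among them. The strains differed in mating-type transcripts as well as in clr-5. matA-1 had 951 to 2049 counts in the 4 WT cultures and 0 in each of the 4 mutant cultures, so that the parts of the deletion and of the mating type in these differences cannot be told apart. clr-5 itself, deleted in the mutant, left 1.63 and 1.31 CPM on histidine and 2.96 and 2.54 CPM on leucine there. Most of the endoplasmic reticulum genes differed, 7 of 8 with a more negative fold in WT. The fold of grp78 was -2.24 in WT and 0.97 in Δclr-5 (difference -3.21, adjusted p = 0.0045). In the cellulase list 6 genes had a more positive fold in WT, cbh-1 at -1.82 in WT and -5.09 in Δclr-5 (difference 3.27, adjusted p = 0.0346), and the median in the mutant was -2.54.

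**Figure D5:**
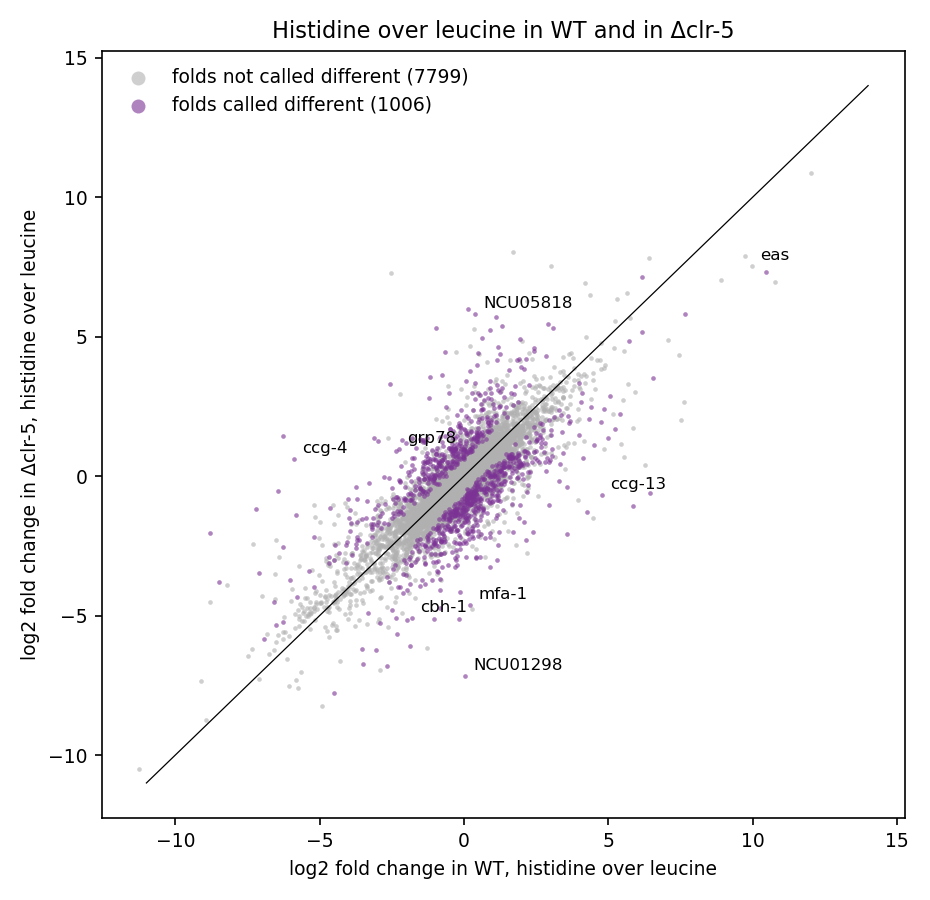
Log2 fold change of histidine over leucine in WT (x axis) against that in Δclr-5 (y axis) for the 8805 genes tested, with the 1006 genes whose folds differed between the strains in purple and the others in grey. The line marks equal folds. NCU01298, with 0.024 in WT and -7.17 in Δclr-5, and ccg-13, with 4.79 and -0.69, lie far from it.

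Among the largest differences between the strains, NCU01298 had 7.43 and 10.4 CPM on histidine, against 8.09 and 9.41 CPM on leucine in WT, and 2.7 and 2.96 CPM on histidine, against 411 and 404 CPM on leucine, in Δclr-5 (difference 7.19, adjusted p = 8.83e-07). ccg-13 rose by 4.79 in WT and had a log2 fold change of -0.69 in Δclr-5 (difference 5.48, adjusted p = 0.000165). mfa-1, the pheromone precursor gene of mat a strains, had 3.12 and 2.91 CPM on histidine, against 2.52 and 2.69 CPM on leucine, in WT, but 929.6 and 1266 CPM on histidine, against 26807 and 26989 CPM on leucine, in Δclr-5 (difference 4.83, adjusted p = 0.00134). ccg-4 was at 0.0429 and 0.194 CPM on histidine and 0.0939 and 0.0489 CPM on leucine in the mutant, too low to show a change there (difference -6.51, adjusted p = 0.00592). The neighbours NCU05818 and NCU05819, on chromosome VII, had log2 fold changes of 0.39 and 1.13 in WT and of 5.80 and 5.70 in Δclr-5. NCU05098 had a log2 fold change of -1.18 in WT and 3.57 in Δclr-5, and NCU09664 2.40 in WT and -2.0 in Δclr-5. The WT calls of NCU05819 and NCU05098 were both lost without histidine culture 1 (adjusted p = 0.0681 and 0.0703) and without leucine culture 1 (adjusted p = 0.109 and 0.233). The WT fold of NCU09664 rested on histidine culture 1. Its log2 fold change was 0.57 without it.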

How the data were processed

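RNA-seq was done on WT and Δclr-5 mycelium, with duplicate cultures for each of 6 combinations of strain and medium. The deposited values are raw counts per gene. Per the submitters' processing notes and the study's methods, paired-end Illumina reads were mapped with TopHat (TopHat2 2.0.8b in the notes) and uniquely mapped reads were counted with HTSeq 0.13.5 on the N. crassa OR74A v12 annotation. The strand setting is not given in the sources used here, so that reads of overlapping or antisense genes cannot be assigned with certainty.

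Counts of all 12 samples were fitted with edgeR 4.0.16 (R 4.3.3; TMM factors, filterByExpr, robust quasi-likelihood, 6 group means) without pooling replicates, and WT histidine minus WT leucine, the same in Δclr-5 and their difference were tested. Calls needed an adjusted p below 0.05 and a change of 0.5 log2 units or more, and 925 of 9730 genes were filtered out. The standard error of a log2 fold change is its size over the root of F. On simulated counts over 8805 genes, 100 genes were changed by 1 log2 unit and 100 by 2 in WT histidine, and the others were left unchanged. Of these, 44% and 90% were called. The WT contrast itself had 4379 calls, and the adjustment of p depends on that share, so the simulated shares do not give its power. Intervals on ratios of few counts are exact and cover counting error only. At these depths a total of 3 counts is the limit that a count of 0 allows.

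Gene symbols and coordinates came from RefSeq (assembly NC12), which has a row for 9729 of the 9730 genes, and products from the study's supplementary annotation, which was read here only in part, so that genes said to have no product name may have one elsewhere. The members and lists were chosen with earlier results of these data known. Named genes are clr-5, the 12 largest changes each way among called genes with mean log2 CPM of at least 3 and non-overlapping cultures, the same among genes with a symbol or product, the 5 largest mean shares of counts per medium, up to 4 called members per list each way, all members of 6 lists on nitrogen and regulators, and the 4 largest differences each way between the strains. Chosen after their values were seen were the DNA repair list and cpc-1, NCU01474, tca-8, fbp-1, nit-2, cdt-1, poi-2, matA-2, fl, acon-3, gh5-1, gh7-1, gh61-1, gh61-3, gh61-5, gh61-7, mus-51, mus-52, mus-25, mus-23, uvs-6, upr-1, msh6 and rpa-1. Alternatives were scaling by RLE or by library size, tests without the filter, a mean of at least 10 CPM, DESeq2 1.42.0, the contrast's samples alone, no fold threshold, a replicate block and leaving out each culture.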

Additional observations from a re-analysis of the deposited data

Results flagged for a closer look

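Of the 198 genes named in the report, 56 had a histidine over leucine log2 fold change that differed between WT and Δclr-5. The criterion was the interaction term of the edgeR quasi-likelihood test at an adjusted p under 0.05 and a difference of at least 0.5. Among all genes tested 11.4% met it. Some of the 56 were named for having the largest such differences between the strains. Their part of the count is fixed by that choice, and the count is a description. The adjusted p-values of the 56 genes ranged from 8.83e-07 to 0.0487, and the values in parentheses are the WT fold minus the Δclr-5 fold. Mating-type transcripts also differed between the strains, and neither this nor the deletion was tested as a source of these values.

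The deleted gene clr-5 itself was among them (1.90), with few counts in the mutant. In the cellulose response the differences were positive, with a more negative fold in Δclr-5, in cbh-1 (3.27), gh61-4 (3.29), gh7-1 (2.27), gh61-3 (3.20), gh61-1 (3.89), gh61-5 (4.11) and cdt-1 (1.78). In the secretory pathway they were negative, in grp78 (-3.21), NCU09265 (-1.99) and NCU09223 (-2.65). acu-6 had log2 fold changes of -1.99 in WT and 1.17 in Δclr-5 (difference -3.16), and acon-2 had log2 fold changes of -1.25 in WT and 0.64 in Δclr-5 (difference -1.89), with opposite signs in the strains.

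Among nitrogen and amino acid genes the difference was negative for ilv-2 (-3.02), ilv-6 (-1.99), his-6 (-2.08) and pmb (-1.10). It was positive for NCU03607 (1.18), NCU00535 (0.90), gln-2 (1.38), NCU01977 (1.60), NCU01065 (0.90), NCU00721 (2.01) and NCU00711 (2.09). NCU00711 had log2 fold changes of 0.32 in WT and -1.77 in Δclr-5 (difference 2.09), and NCU00721 had log2 fold changes of 1.15 in WT and -0.86 in Δclr-5 (difference 2.01).

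Among the genes with the largest changes and the largest shares of counts the difference was positive for NCU02880 (3.12), tzn-1 (1.86), NCU08413 (3.04), NCU09115 (0.98), NCU05105 (0.85), ncw-5 (3.56), ccg-13 (5.48), NCU01598 (2.29), NCU03600 (1.61), NCU10040 (2.07) and NCU06110 (2.36). It was negative for NCU05477 (-0.97), NCU06905 (-3.62), per-1 (-1.09) and NCU03988 (-1.17). In the other lists it was positive for NCU02020 (1.16), ccg-14 (3.47), gel-3 (0.97), cat-3 (1.63) and mus-52 (0.71), and negative for chs-6 (-1.30), pho-4 (-1.77), gst-1 (-1.46) and gst-4 (-2.06).

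The sexual genes ccg-4 (-6.51), poi-2 (-5.92) and mfa-1 (4.83) and the genes with the largest differences, NCU01298 (7.19), NCU09664 (4.40), NCU05818 (-5.41), NCU05098 (-4.75) and NCU05819 (-4.57), complete the set.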

How the results depend on the processing

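Of 2168 combinations of 198 named genes and 11 alternatives, 2111 kept the call or its absence, 43 lost the call and 14 gained one. No gene called in either fit changed direction. Among genes called in neither fit, a change of sign was not counted. The 4379 calls in WT became 3601 to 3951 when 1 culture was left out, 4469 with DESeq2 and 4708 with the 4 cultures alone. Library size scaling gave 3505 genes higher and 1541 lower in WT, that is 69.5% of the calls higher, against 47.6% with TMM, and for the difference between the strains 989 more positive and 266 more negative in WT in place of 576 and 430. Fitting only the 8 cultures of that difference gave 1857 calls, 978 more positive and 879 more negative. Leaving out 1 culture gave 428 to 726 calls of the difference, 243 to 434 more positive and 185 to 292 more negative, so that this count depends on every culture. In these fits the lone culture of a group is assumed to vary like the others.

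Under library size scaling, cpc-3 (-0.48) and NCU01977 (-0.50) fell below the fold threshold, and NCU00711 (0.71), NCU03607 (0.61), nit-2 (0.69) and cdt-2 (0.74) were called higher. The call of cdh-1 was lost in the fit to 4 cultures (adjusted p = 0.108, edgeR), and that of fbp-1 without histidine culture 1 (adjusted p = 0.0558). In the edgeR fit to the 4 cultures fl (adjusted p = 0.012) was called. The median of hemicellulases was -1.16 without histidine culture 1 and -0.035 without histidine culture 2. The cause was not tested.

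Same-numbered histidine and leucine cultures did not deviate together (correlation 0.0258 in WT and -0.0321 in Δclr-5), and the labels do not tie the numbers to a shared batch. With the replicate number as a block the calls were 4339 in WT, 4651 in Δclr-5 and 935 for the difference, and no named gene changed its call.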
